A study of Rattus norvegicus with 8 samples.

Results

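Gja1 (ENSRNOG00000000805) encodes the connexin Cx43, the main gap junction protein of cardiac muscle and of cardiac fibroblasts, and is the 1 gene described here, of 21867 genes with estimated counts. It was chosen by its identifier, as the gene of electrical coupling between cardiac fibroblasts, by a rule that uses no measured value, although results of these data were already known. Connexins assemble into hemichannels in the plasma membrane, and hemichannels of neighbouring cells dock to form gap junctions that pass ions, small metabolites and second messengers. In the heart, Cx43 carries the impulse between ventricular cardiomyocytes, and in culture it also couples fibroblasts to each other and to cardiomyocytes. The protein turns over quickly, and coupling also depends on its phosphorylation and its transport to the membrane, neither of which RNA sequencing measures.

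RNA was sequenced from primary neonatal cardiac cells of Wistar Kyoto rats in 4 groups of 2 libraries. Cardiac fibroblasts (CF) were the healthy starting cells in standard medium. Myofibroblasts (MF), the contractile and matrix-producing cells that fibroblasts become after injury, were derived from CFs by repeated passaging in low-serum medium and received no current. The treated groups were such myofibroblasts exposed for 72 h to direct current of 1 µA/cm2 (1 µA) or 2 µA/cm2 (2 µA) through electrodes in the medium. The labels place the treated cells in standard medium during the current, and the medium of the untreated MFs over those hours is not given in the sources used here, so that current and medium cannot be told apart in comparisons with MF. The labels call the libraries of a group biological replicates without naming separate animals or isolations.

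Estimated counts summed to between 26473085 and 37903701 per library. The other count table, a matrix of whole numbers for 13341 genes, held 18960425 to 26687203 counts per library. No library was a copy of the other in its group, since the chi-square of their counts, divided by the number of genes, was lowest in MF at 16.9 and highest in CF at 119. The tables list genes by Ensembl identifier, and none of their 23330 identifiers matched the RefSeq gene table used here, so other connexins, pannexins, partners of Cx43 and markers of cardiomyocytes or other cell types were not analysed here, and the purity of the cultures was not checked. In cultures of mixed cells, fewer cells that express Gja1 and less Gja1 RNA per cell cannot be told apart.

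In RefSeq (build GRCr8), Gja1 lies on chromosome 20 between Msl3l2 and Hsf2 among protein-coding genes, with 4 transcript models. The 250 bases before the start site in the promoter table, chr20:36302314-36302563 on the plus strand, are shown because the transcript level is all that was measured of this gene. Capitals mark the match to the AP-1 motif, the site of Fos and Jun factors.
Gja1 promoter: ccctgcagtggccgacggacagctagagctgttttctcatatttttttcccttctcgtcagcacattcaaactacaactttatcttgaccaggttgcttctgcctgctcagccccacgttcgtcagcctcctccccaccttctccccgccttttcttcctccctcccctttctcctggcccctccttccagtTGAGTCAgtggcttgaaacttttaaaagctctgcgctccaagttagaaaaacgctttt

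The motif TGANTCA, searched on both strands, occurred once, with its first base 58 bases before the start. It occurred in 6.34% of the 33469 promoter entries over the same 250 bases. Neither the GC box GGGCGG, held by 30.5% of the entries, nor the TATA box TATAAA, held by 12.9%, was found in the Gja1 window on either strand. These are matches of letters in this window alone, and binding at this promoter was not measured. Which of the transcript models begin at this start site was not examined.

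Gja1 was well detected in every library, with 1012 and 1247 estimated counts in replicates 1 and 2 of CF and 1186 and 1235 in those of MF. The 1 µA libraries had 3430 and 2269, the 2 µA libraries 3969 and 1220. Scaled to library size with TMM factors, in the CPM of edgeR, the level was 26.8 and 40.8 CPM in the CF libraries and 44.3 and 46.5 CPM in the MF libraries. In the treated myofibroblasts it was 115 and 74.9 CPM at 1 µA, and 127 and 39.5 CPM at 2 µA. Thus 3 of the 4 treated libraries lay above all 4 untreated ones, whereas replicate 2 of the 2 µA group lay below both MF libraries and between the CF libraries. The 95% counting interval of each share of counts (Clopper-Pearson) was at most 6.21% of the value to either side, so that the spread within the 2 µA group was far beyond counting error.

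**Figure D1:**
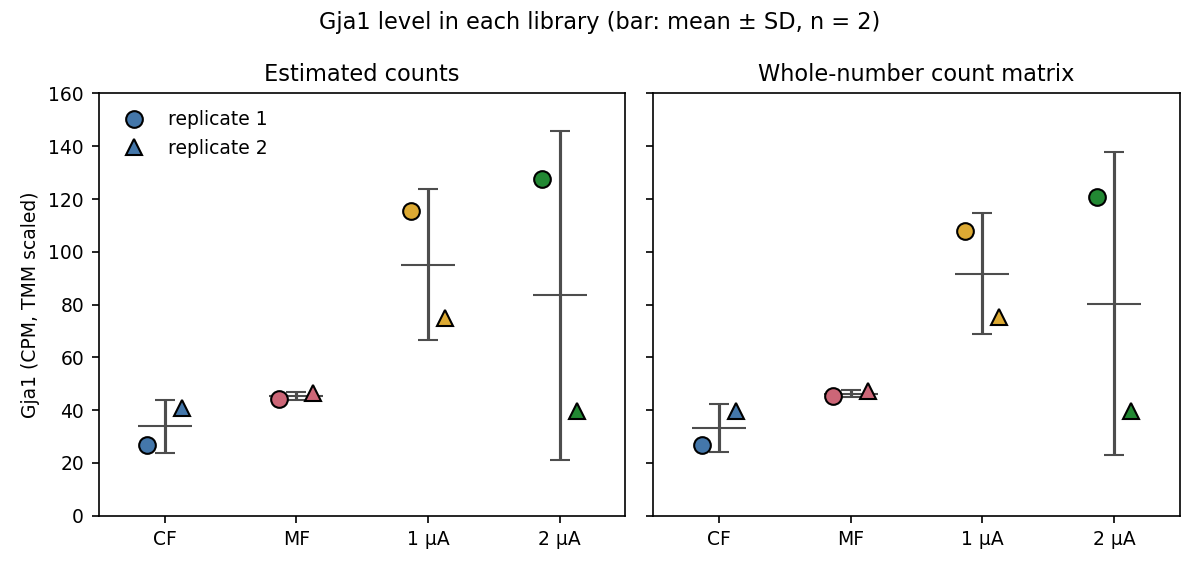
Level of Gja1 in each library, in TMM-scaled CPM on a linear axis, from the estimated counts (left) and the matrix of whole-number counts (right). Circles are replicate 1, triangles replicate 2, and bars give the mean ± SD of each group (n = 2). In both panels 3 treated libraries stand above all CF and MF libraries, and 2 µA replicate 2 does not.

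Group means rose in the order CF, MF, 2 µA and 1 µA, at 33.8 ± 9.89 CPM (SD, n = 2), 45.4 ± 1.50 CPM (SD, n = 2), 83.5 ± 62.2 CPM (SD, n = 2) and 95.1 ± 28.5 CPM (SD, n = 2). The libraries of CF and MF did not overlap but lay close together, those of MF and 1 µA did not overlap, and those of 2 µA lay on both sides of MF and enclosed both libraries of 1 µA. None of the neighbours in this order differed in the test given below. The variance stabilised (vst) values of the authors, on a log2 scale, gave a similar picture, with 10.1 ± 0.406 (SD, n = 2) in CF, 10.5 ± 0.0305 (SD, n = 2) in MF, 11.5 ± 0.414 (SD, n = 2) at 1 µA and 11.1 ± 1.15 (SD, n = 2) at 2 µA.

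The matrix of whole-number counts has no stated pipeline. It gave Gja1 706 and 870 counts in the CF libraries, 903 and 893 in MF, 2262 and 1663 with 1 µA, and 2711 and 888 with 2 µA. The low value in 2 µA replicate 2 was thus present in both tables, which describe the same libraries. In CPM of the matrix it was 39.8, just above the higher CF library at 39.7 and below both MF libraries. Per library, the CPM of the matrix was 0.937 to 1.02 times that of the estimated counts. The factors by which the authors normalized the estimated counts also hold the mean transcript length. For Gja1 they lay at 0.994 to 1.01 of the median gene of each library, so the estimated transcript length differed little between libraries.

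The first comparison asks whether Gja1 differs between the starting fibroblasts and the myofibroblasts made from them. Gja1 was 1.34-fold higher in MF, a log2 fold change of 0.43 ± 0.52 (SE), with a 95% interval of -0.80 to 1.65 and an adjusted p of 0.595 (edgeR's quasi-likelihood test, Benjamini-Hochberg adjustment over 13849 genes). It did not pass the test, in a comparison where 10.4% of all genes were called at an adjusted p below 0.05 and at least a 2-fold change. The interval allows both a rise of over 3-fold and a fall to 0.573 of the CF level, so equal levels were not shown.

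The next comparisons ask whether microcurrent moved the Gja1 transcript of myofibroblasts. At 1 µA, where both libraries exceeded both MF libraries, the level was 2.10-fold that of MF, a log2 fold change of 1.07 ± 0.52 (SE) with a 95% interval of -0.16 to 2.30 and an adjusted p of 0.246, and it did not pass the test (3.92% of all genes were called). With only the 1 µA and MF libraries in the fit, the log2 fold change was 1.07 ± 0.21 (SE). Gja1 was then called, at an adjusted p of 0.0196. This smaller fit called 1164 of 13474 genes, against 543 of 13849 in the fit over all libraries. The fit of 1 µA and MF alone leaves out both the CF and the 2 µA libraries. With either 2 µA library left out and all others kept, the log2 fold change was also 1.07 ± 0.27 (SE). The SE was thus smaller than the 0.52 of the fit over all libraries, at the same fold change, and Gja1 was not called. Why the call differs between these fits was not tested.

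At 2 µA the level was 1.84-fold that of MF, a log2 fold change of 0.88 ± 0.52 (SE) with a 95% interval of -0.35 to 2.11 and an adjusted p of 0.316, against 4.62% of all genes called. This value rested on replicate 1. Without it the log2 fold change was -0.20, and without replicate 2 it was 1.49, with an adjusted p of 0.0642 in the latter case.

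Both treated groups together averaged 1.96-fold the MF level, a log2 fold change of 0.97 ± 0.46 (SE) with a 95% interval of -0.13 to 2.08 and an adjusted p of 0.198, and 6.76% of all genes were called in this comparison. Gja1 was higher than in MF in 3 of 4 treated libraries. An exact permutation test of the 4 treated against the 2 MF libraries on mean log2 CPM, two-sided, gave p = 0.267, where the design allows no p below 0.0667. Without 2 µA replicate 2 the log2 fold change was 1.278 and Gja1 was called (adjusted p = 0.0330), and without 2 µA replicate 1 it was 0.43 (adjusted p = 0.316). The same choice of libraries decided the call in the matrix of whole-number counts, a check added after seeing the values, with 1.19 (adjusted p = 0.0257) without replicate 2 and 0.38 (adjusted p = 0.322) without replicate 1.

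**Figure D2:**
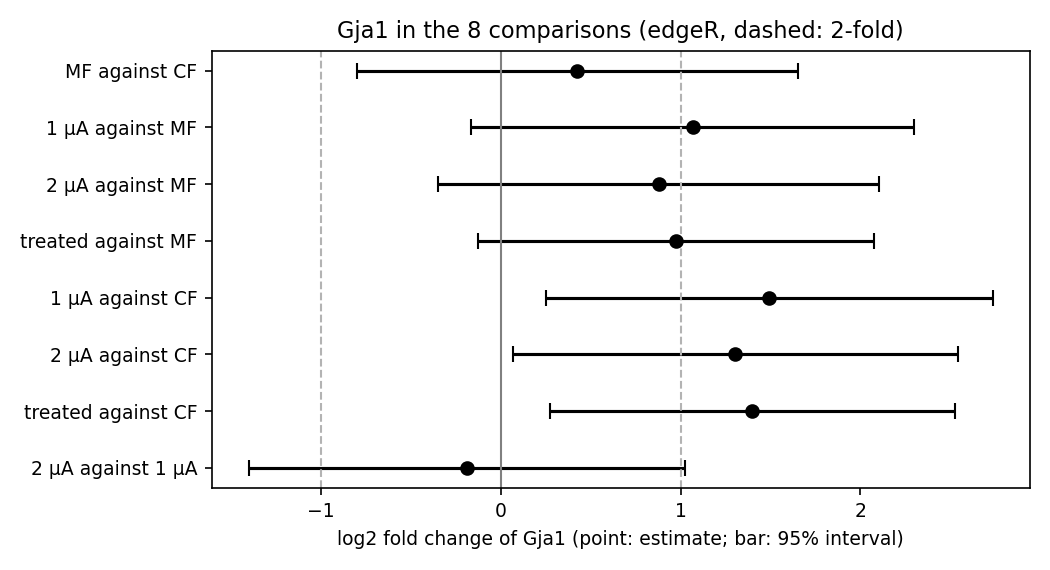
log2 fold change of Gja1 in the 8 comparisons, with points for the estimate of edgeR's quasi-likelihood fit and bars for its 95% interval. The solid line marks no change and the dashed lines a 2-fold change. Only the 3 intervals of treated cells against CF lie wholly above 0, before adjustment over all genes.

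Against the healthy fibroblasts, the differences were larger. The treated cells had also been passaged in low-serum medium, so current and differentiation cannot be told apart in comparisons with CF. At 1 µA the level was 2.81-fold that of CF, a log2 fold change of 1.49 ± 0.52 (SE) with a 95% interval of 0.25 to 2.74. The adjusted p was 0.128, with 6.51% of all genes called. At 2 µA it was 2.47-fold that of CF, a log2 fold change of 1.30 ± 0.52 (SE) with a 95% interval of 0.07 to 2.54. The adjusted p was 0.190, with 5.02% of all genes called. The mean of both was 2.64-fold that of CF, a log2 fold change of 1.399 ± 0.47 (SE) with a 95% interval of 0.27 to 2.53 (adjusted p = 0.100, 7.65% of all genes called). The two-sided exact permutation test of the 4 treated against the 2 CF libraries gave p = 0.200, with 3 of 4 treated libraries above both CF libraries. These intervals, taken for the single gene, lie above 0, but no comparison with CF passed after adjustment over all genes, also with no minimum fold change.

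The call against CF depended on the tool. DESeq2, the tool of the study, called Gja1 higher than in CF at 1 µA (log2 fold change 1.49, adjusted p = 0.0101), at 2 µA (1.31, adjusted p = 0.0362) and in the mean of both (1.402, adjusted p = 0.00376). It also called more genes in all, 1243 of 14557 at 1 µA, 1072 of 14557 at 2 µA and 1324 of 14885 in the mean. The counts of edgeR were 901, 695 and 1060 of 13849. In DESeq2 too, Gja1 was not called between treated cells and MF, with an adjusted p of 0.107 at 1 µA, 0.206 at 2 µA and 0.0657 for the mean. The comparisons against MF and against CF share the treated libraries, and therefore also share 2 µA replicate 2. Without it, edgeR called Gja1 higher than in CF at 1 µA (1.49, adjusted p = 0.0265, and 0.0263 without 2 µA replicate 1 in its place), at 2 µA (1.92, adjusted p = 0.0277) and in the mean (1.70, adjusted p = 0.0136). Without 2 µA replicate 1, Gja1 was not called against CF at 2 µA (0.23, adjusted p = 0.790) or in the mean (0.86, adjusted p = 0.0974).

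**Figure D3:**
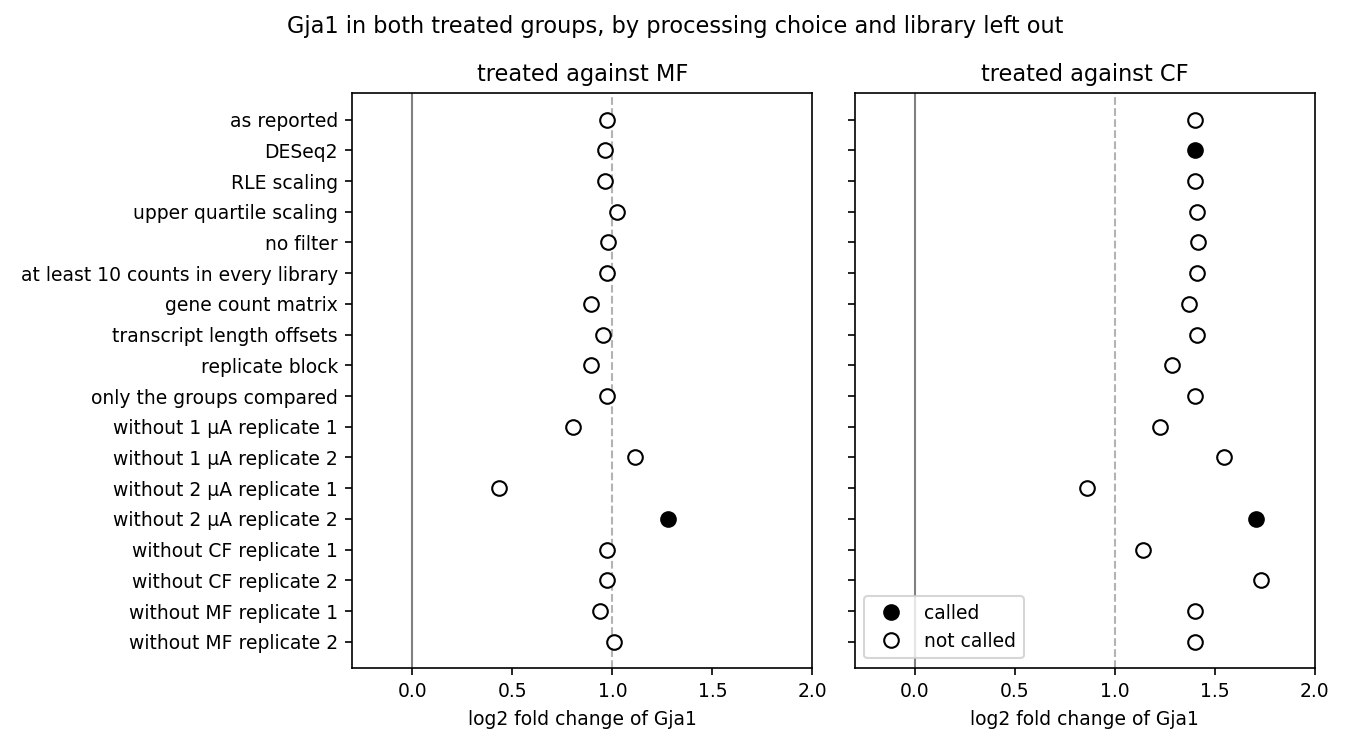
log2 fold change of Gja1 for the average of the treated groups, against MF (left) and against CF (right), under each planned processing choice and with each library left out. Filled points passed an adjusted p below 0.05 and a 2-fold change (dashed line). Against MF the call was made only without 2 µA replicate 2, and against CF also with DESeq2.

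Between the current densities, Gja1 was 0.878-fold at 2 µA relative to 1 µA, a log2 fold change of -0.19 ± 0.51 (SE) with a 95% interval of -1.40 to 1.03 and an adjusted p of 1. Of all genes, 0.00722% (1 of 13849) were called. The sign turned without 1 µA replicate 1 (0.16) and without 2 µA replicate 2 (0.42), and the interval allows a difference of over 2-fold in either direction, so neither a difference between the doses nor equal levels were shown.

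The spread of Gja1 between replicates differed from group to group. In the 2 µA group replicate 1 was 3.23-fold replicate 2, with a 95% counting interval of 3.02 to 3.44, a gap of 1.69 on the log2 scale. Of the 13849 genes tested, 1.94% had a larger gap in that group, where the median gap was 0.204. At 1 µA replicate 1 was 1.54-fold replicate 2, and 9.63% of genes had a larger gap. In CF replicate 1 was 0.657-fold replicate 2, a gap exceeded by 20.7% of genes. The MF libraries differed by 0.0673 on the log2 scale, less than the median gap of 0.122. Among the 2240 genes within 0.5 of Gja1 in mean log2 CPM, whose counts are about as precise, 0.223% had a larger gap at 2 µA, 1.79% at 1 µA, 9.60% in CF and 57.0% in MF.

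**Figure D4:**
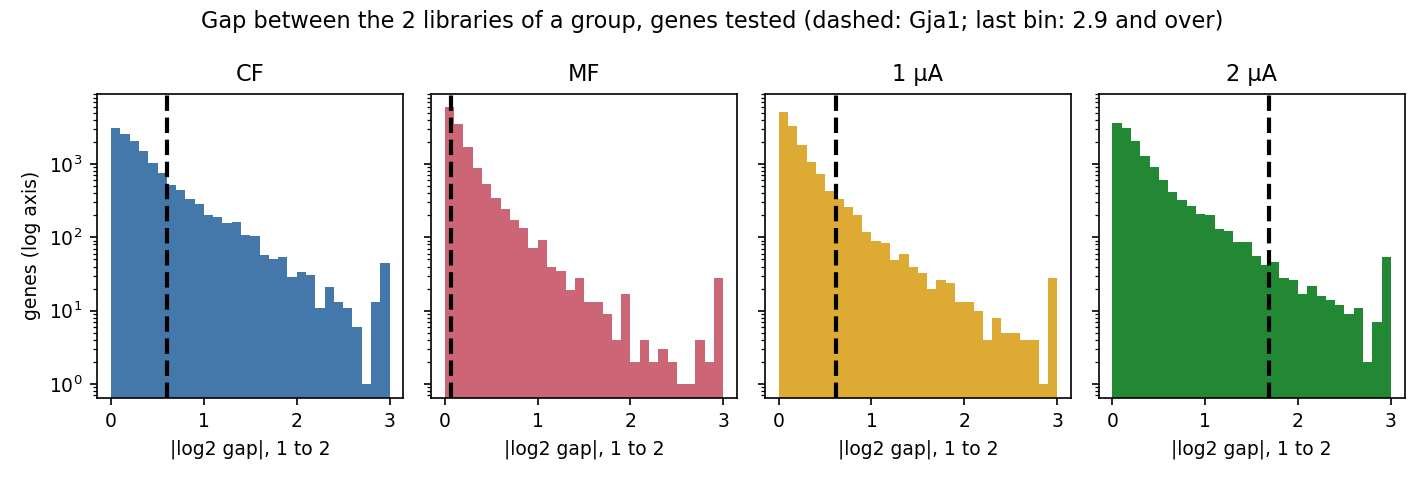
Absolute log2 difference in CPM between the 2 libraries of each group over the 13849 genes tested, as histograms with the number of genes on a log axis. The dashed line is Gja1 and the last bin holds all larger gaps. Gja1 lies in the bulk of the genes in MF and far in the tail at 2 µA.

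The biological coefficient of variation that edgeR estimated for Gja1 was 35.6%, against 18.4% for all genes in common and 14.8% on the trend at its level. Only 7.99% of genes had a larger one. Among the 2116 genes within 0.5 of it in edgeR's average log2 CPM, Gja1 included, the share was 1.37%. In the edgeR fit over all 8 libraries the 4 groups shared 1 estimate, so this spread entered the error of its 8 comparisons, including those that do not involve the 2 µA group.

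Over all genes, the 2 µA library with the low Gja1 level had a root mean square log2 distance of 0.752 from the MF mean. It was nearer to MF than 1 µA replicate 2 (0.773) and 2 µA replicate 1 (0.791), and farther than 1 µA replicate 1 (0.713). Its distance from the CF mean, 0.796, was the smallest of the 4, the others lying at 0.853 to 0.931. Of the 6 pairs of treated libraries, those of the 2 µA group were the least alike over all genes, with a Spearman rho of 0.984, where the other pairs had 0.986 to 0.994. Gja1 shared its pattern with other genes, since 504 genes (3.64%) had the other 3 treated libraries above all 4 untreated ones and 2 µA replicate 2 not. The mirror pattern, with the other 3 below all untreated libraries and 2 µA replicate 2 not, held in 503 genes (3.63%). The count of the upward pattern with another treated library as the exception was 203 for 1 µA replicate 1, 80 for 1 µA replicate 2 and 139 for 2 µA replicate 1. In 1039 genes (7.50%) all 4 treated libraries lay above all untreated ones, and Gja1 was not among them. Whether a property of that library bears on its Gja1 level was not tested.

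The genes whose pattern was most like that of Gja1 were sought by Pearson's r of log2 CPM over the 8 libraries, among 9620 genes with a mean log2 CPM of at least 3. The closest were ENSRNOG00000030625 (r = 0.985) and ENSRNOG00000022694 (r = 0.982). ENSRNOG00000030625 ran from 6.01 and 6.25 log2 CPM in CF and 6.49 and 6.61 in MF to 7.87 and 7.07 at 1 µA, and stood at 7.80 and 6.54 at 2 µA. Like Gja1, it was lower in 2 µA replicate 2 than in the other treated libraries. That value lay between its MF libraries, whereas that of Gja1 lay below both MF libraries. Over the same libraries ENSRNOG00000022694 spanned only 0.726 on the log2 scale, against 2.25 for Gja1. The most opposite patterns were those of ENSRNOG00000055226 (r = -0.988) and ENSRNOG00000019179 (r = -0.985), which spanned 0.503 and 0.615. The order depended on the measure. On the vst values the r of ENSRNOG00000055226 was -0.959, and the Spearman rho of ENSRNOG00000019179 was -0.881. ENSRNOG00000022694 had an r of 0.978 on the vst values. In all, 98 genes (1.02%) had an r of at least 0.9 and 75 (0.780%) an r of at most -0.9. These values describe 8 libraries that fall into 4 groups, and they carry no test.

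**Figure D5:**
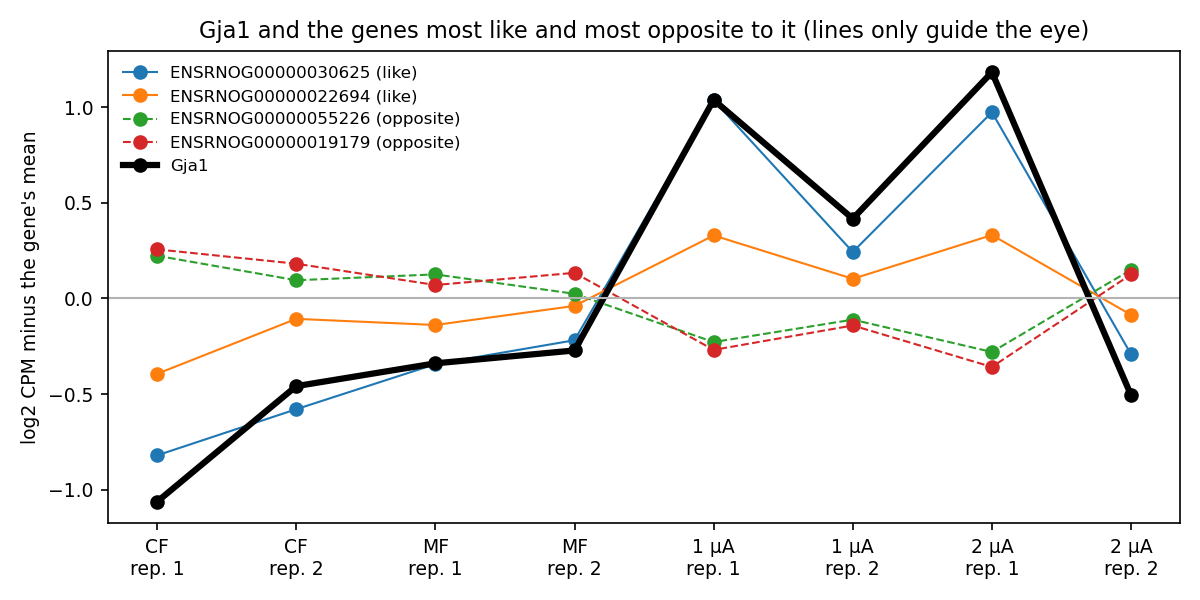
log2 CPM of Gja1 (thick line) and of the 2 genes most like it (solid) and the 2 most opposite to it (dashed) in the 8 libraries, each relative to its own mean. Gja1 and ENSRNOG00000030625 are both well above their mean in 1 µA replicate 1 and 2 µA replicate 1 and below it in 2 µA replicate 2.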

How the data were processed

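Reads from 8 libraries had been quantified by the authors with salmon on the rat transcriptome rn6 and summarized to genes with tximeta, and were deposited as estimated counts. The authors also deposited these counts normalized with DESeq2, held here as a signal, and vst values on a log2 scale. A deposited matrix of whole-number counts has no stated pipeline, although fastp and STAR are named in the labels. The submitters' processing notes name DESeq2 1.28.1, and the methods of the study name another version. No authors' fold changes were used.

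Estimated counts were rounded and tested with edgeR 4.0.16 (limma 3.58.1, R 4.3.3), using filterByExpr, TMM scaling, robust dispersions and the quasi-likelihood test over all 8 libraries with 1 coefficient per group, leaving 4 residual degrees of freedom. The 13849 genes tested were called where the Benjamini-Hochberg adjusted p was below 0.05 and the change at least 2-fold in either direction. SE is the absolute log2 fold change over the root of F, and 95% intervals use the moderated degrees of freedom. Log2 CPM used a prior count of 2. The fit was tested on simulated data. The p-values measure only the spread between these libraries, and counting intervals cover counting error only.

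The alternatives were DESeq2 1.42.0, RLE and upper quartile scaling, other filters, the matrix, length offsets, only the groups compared, a replicate block, other thresholds and each library left out. Gene Gja1, the comparisons and the lists were chosen with earlier results of these data known. The planned lists of 135 connexin, partner, channel and cell type marker genes were not run, since symbols and Ensembl identifiers could not be paired. The rule for named genes therefore left Gja1 and, of the 5 genes planned on each side, the 2 identifiers most like it and the 2 most opposite to it. Neighbouring genes have no values for the same reason. Python 3.11.15, SciPy 1.17.1 and matplotlib 3.10.9 were used for the rest.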

Additional observations from a re-analysis of the deposited data

How the results depend on the processing

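Of 88 values from settings other than leaving out a library (11 for each of 8 comparisons), 84 kept the direction and the side of the threshold and 4 gained a call. Among the 84 are the other thresholds, which reuse the fit as reported and so could not change a direction. As the lowest adjusted p of that fit was 0.100, they could not add a call either. With only the groups compared, 1 µA against MF was called (1.07), and DESeq2 called 1 µA (1.49), 2 µA (1.31) and their mean (1.402) against CF. Leaving out 1 library gave 64 values, of which 56 kept both, 5 gained a call and 3 turned sign. The log2 fold change then ranged from -0.20 to 1.49 for 2 µA and from 0.43 to 1.278 for the mean against MF, from 1.15 to 1.82 for 1 µA, 0.23 to 1.92 for 2 µA and 0.86 to 1.73 for the mean against CF, and from -1.27 to 0.42 between the current densities. MF against CF ranged from 0.17 to 0.76 and 1 µA against MF from 0.72 to 1.34, with no call. Over these 8 omissions the adjusted p ran from 0.0330 to 0.518 for the mean against MF and from 0.0136 to 0.325 for the mean against CF. Over the other settings it ran from 0.0196 to 0.283 for 1 µA against MF and from 0.00376 to 0.163 for the mean against CF. In the matrix of whole-number counts without 2 µA replicate 2, chosen after seeing the data, the mean against MF was 1.19. Where a group kept 1 library, that library was assumed to vary like the others. The cause of these changes was not tested, apart from the libraries left out.

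With a replicate block, the log2 fold change was 0.39 for MF against CF, and 0.89 and 1.284 for the treated mean against MF and CF, and no call changed. Whether libraries of the same number were paired is not given in the sources used here. Deviations of same-numbered libraries correlated from -0.172 between CF and 1 µA to 0.242 between 1 µA and 2 µA. These correlations rest on 2 libraries per group and cannot decide it. The permutation tests kept their direction on vst values and in the matrix. With 2 libraries per group precision was low, the 95% interval of 1 µA against MF running from 0.892-fold to 4.92-fold.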
